A study of Mus musculus with 2 samples.

Results

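The Rab genes encode the largest family of small GTPases of the Ras superfamily. Its members here were taken by name, as genes with at least 1 transcript annotated as protein-coding and a symbol made of Rab, a number and at most 1 letter from a to d. This rule found 59 genes among 21901 genes with a protein-coding transcript, and among 55450 annotated genes in all, and used no measured value. All 59 carry the gene type protein-coding in the annotation, GENCODE release M21 for the mouse assembly mm10, and they lie on 18 chromosomes. The study sequenced total RNA, depleted of ribosomal RNA, from the nucleoplasmic fraction of bone-marrow-derived macrophages, primary cells cultured from marrow precursors. The cells came from C57BL/6J mice and had received 100 ng/ml lipid A, the part of lipopolysaccharide that activates the receptor TLR4, for 90 min. This was the single group, with 2 libraries, labelled biological replicates 1 and 2. Both name the same donor entry, and part of their spread may therefore be technical. Starting RNA was 1 µg for replicate 1 and 500 ng for replicate 2, and with no untreated or cytoplasmic library in the comparison, no test between conditions could be made.

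A Rab protein is a switch: loaded with GTP it sits on a membrane and recruits effectors such as tethers and motors, and once the GTP is hydrolysed it is taken off the membrane in a complex with a GDP dissociation inhibitor. Exchange factors turn the switch on, GTPase-activating proteins turn it off, and a prenyl group on cysteines at the end of the protein anchors it. Each compartment carries its own Rabs, so that in macrophages Rab5 marks the young phagosome and Rab7 the phagosome that fuses with lysosomes. The RNA measured here is nuclear, and it says nothing of the amount of protein.

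The family descends from common ancestors, and the part of the gene that encodes the nucleotide-binding pocket is its best conserved stretch. The 7-residue motif WDTAGQE of this pocket was searched in the translated coding sequence of each gene's principal transcript. It was found in 49 of 59 genes, and the other 10 were Rab7b, Rab20, Rab24, Rab25, Rab28, Rab29, Rab32, Rab38, Rab40b and Rab40c. Over 47 of these genes whose letters were read, the 21 bases that encode it came in 37 versions. The stretches of the highest and most alike paralogues are shown because reads of such genes can be told apart only where the letters differ. Capitals mark the 7 codons of the motif, with 12 coding bases on either side, from the GENCODE transcripts and written 5′ to 3′ on the gene's strand.
Rab1a: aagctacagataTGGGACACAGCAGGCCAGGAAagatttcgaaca
Rab1b: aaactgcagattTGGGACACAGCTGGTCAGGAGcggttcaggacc
Rab5a: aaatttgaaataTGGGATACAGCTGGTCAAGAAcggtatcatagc
Rab5b: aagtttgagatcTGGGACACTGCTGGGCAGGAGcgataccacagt
Rab5c: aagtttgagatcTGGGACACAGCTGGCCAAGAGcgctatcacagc
Rab8a: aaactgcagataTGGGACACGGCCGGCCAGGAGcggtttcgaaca
Rab8b: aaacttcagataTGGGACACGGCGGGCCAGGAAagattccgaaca
Rab11a: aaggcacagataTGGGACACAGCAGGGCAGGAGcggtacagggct
Rab11b: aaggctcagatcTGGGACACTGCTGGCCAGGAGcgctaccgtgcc

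Within these 45 bases, Rab1a and Rab1b differed at 12 positions, Rab5a and Rab5b at 12, Rab11a and Rab11b at 9, Rab5a and Rab5c at 8, Rab5b and Rab5c at 6 and Rab8a and Rab8b at 6. In mm10 the stretch of Rab5a lies in exon 3 at chr17:53497571-53497615 on the plus strand, that of Rab5b in exon 3 at chr10:128683258-128683302 and that of Rab5c in exon 3 at chr11:100718494-100718538, both on the minus strand. Those of Rab11a (chr9:64728245-64728289) and Rab11b (chr17:33749793-33749837) lie in exon 2 on the minus strand. The stretches of Rab1a and Rab1b join exons 3 and 4, and those of Rab8a and Rab8b join exons 2 and 3. Encoded proteins ran from 194 to 725 residues with a median of 215, the longest that of Rab44, and all 59 ended with a cysteine among the last 5 residues. Over all 1711 pairs the median identity was 35.3%.

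The libraries held 22669533 and 14939143 estimated counts, of which the Rab genes had 41645.5 and 28691.9. The authors deposited 2 quantifications of each library, and values are those of the first unless the second is named. Levels are given in TPM (transcripts per 1000000), a unit per transcript length that allows genes to be compared within a library. Genes with a protein-coding transcript held 22.4% of all TPM in replicate 1 and 39.2% in replicate 2, and their median TPM was higher in replicate 2 by 0.39 on the log2 scale, so raw TPM were mostly higher there. The SD of a TPM over both libraries (n = 2) includes this shift. For a group of genes, the median is that of the genes' mean TPM, and the value after ± is the SD of the 2 library medians. That SD is also one of raw TPM and does not describe the spread between genes. All 7 macrophage markers reached 1 TPM in each library, the lowest with a mean of 13.7 TPM. None of 17 markers of T, B, mast, stromal and endothelial cells, basophils and neutrophils reached a mean of 1 TPM, and their sum was 0.46 and 1.05 TPM.

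Most of the Rab family was present in the nucleoplasm of the lipid A-treated macrophages. A gene is called expressed here when it reached 1 TPM in each library. This held for 34 of 59 Rab genes (57.6%), where 39.1% of all genes with a protein-coding transcript reached that level. Of the Rab genes, 19 (32.2%) reached 10 TPM in each library, beside 14.7% of all. The 34 genes had a median of 12.1 ± 0.297 TPM (11.7 and 12.1), where the 8565 genes with a protein-coding transcript at that level had 7.75 ± 1.47 TPM (6.62 and 8.70). The 6 Rab genes Rab3b, Rab3c, Rab9b, Rab17, Rab39b and Rab42 had 0 counts in both libraries (34.4% of all genes did), which allows up to 3 counts or a CPM (counts per 1000000) of 0.132 and 0.201. A further 15 had counts but stayed under 1 TPM in both libraries, and 4 were at 1 TPM or more in 1 library. The 59 genes summed to 522 and 682 TPM, or 0.233% and 0.174% of the TPM of all genes with a protein-coding transcript. Their order was much the same in both libraries, with a Spearman correlation of 0.989 over the 59 genes, which are not independent replicates. In RNA from a population, fewer cells with a transcript and less of it per cell cannot be told apart.

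**Figure D1:**
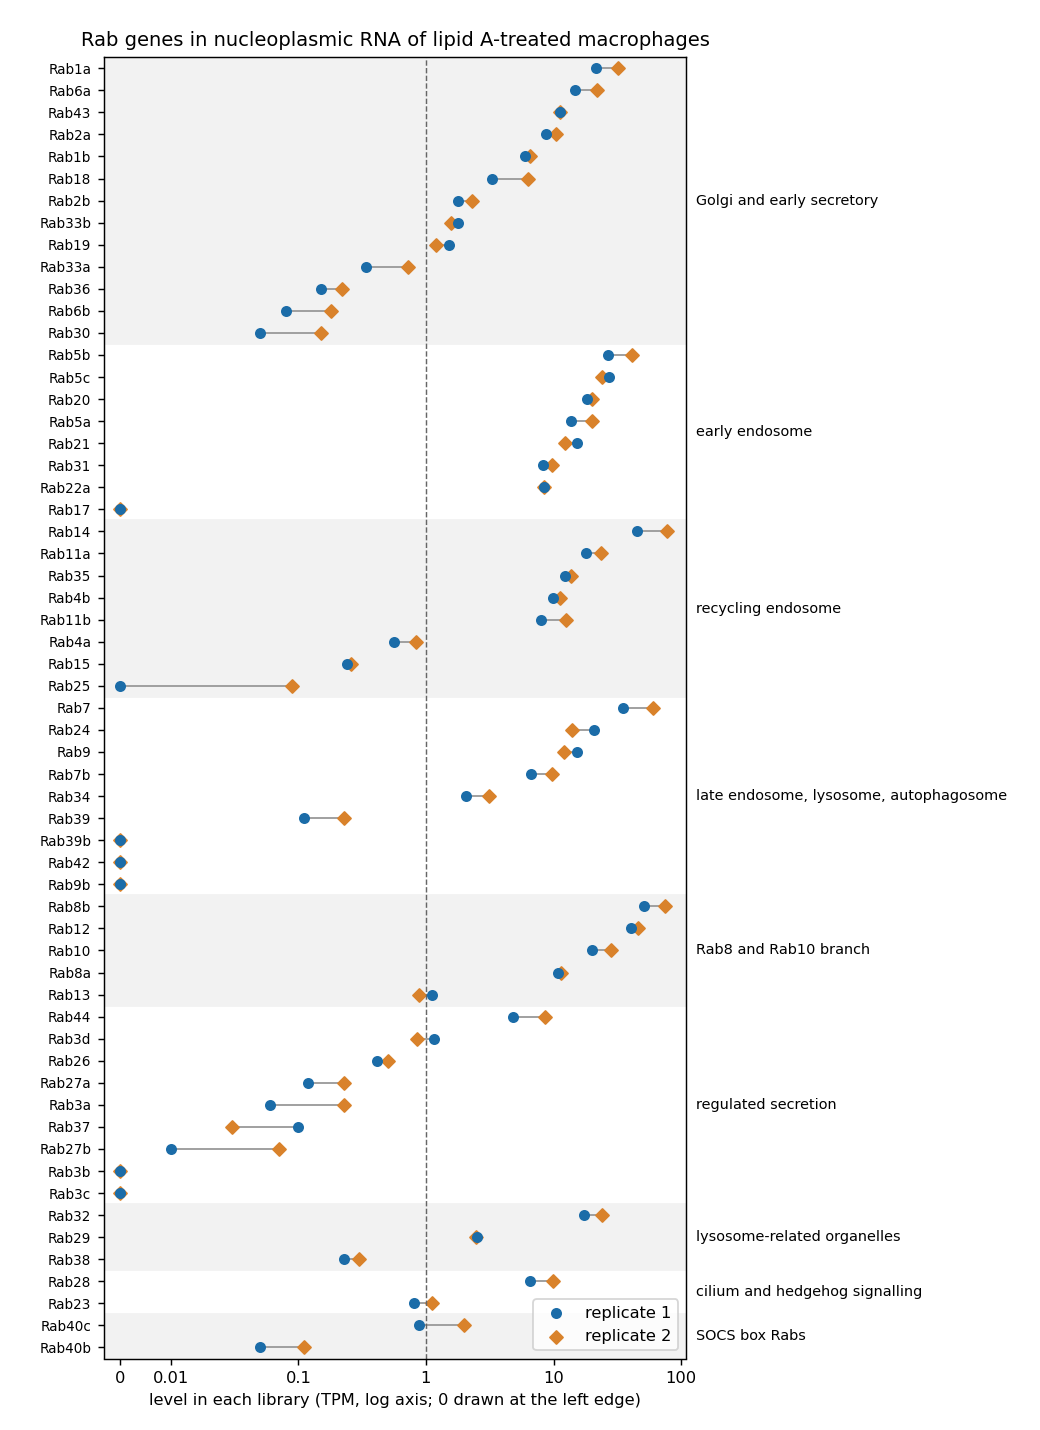
Level of each of the 59 Rab genes in TPM (log axis) in replicate 1 (circles) and replicate 2 (diamonds), grouped by role, with 0 drawn at the left edge and a dashed line at 1 TPM. The groups of regulated secretion and of the SOCS box hold 1 of 9 and 0 of 2 expressed genes, while the early endosome group holds 7 of 8.

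A few Rabs of exocytosis, endosomes and phagosomes held much of the family's RNA. The 5 genes with the highest mean TPM held 38.1% and 44.0% of the Rab TPM, and the 10 with the highest mean 58.0% and 63.3%. Of the 10 highest genes in each library, 8 were shared. Rab8b, which drives carriers to the cell surface, was at 51.4 and 74.6 TPM (63.0 ± 16.4), from 8089.7 and 5825.3 estimated counts. Rab14, which works between the Golgi apparatus, endosomes and phagosomes, was at 45.2 and 77.8 TPM (61.5 ± 23.0). Rab7, the Rab of late endosomes and lysosomes, was at 35.2 and 60.6 TPM (47.9 ± 18.0), and Rab12, which acts on receptor traffic and autophagy, at 40.1 and 45.6 TPM (42.9 ± 3.87). Among all expressed genes with a protein-coding transcript, Rab8b stood at percentile 93.1 and Rab12 at percentile 89.0.

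Rab5b followed with 26.5 and 41.1 TPM (33.8 ± 10.3), Rab1a with 21.5 and 31.9 TPM (26.7 ± 7.41) and Rab5c with 27.1 and 23.8 TPM (25.4 ± 2.33). Rab10, of exocytic and tubular carriers, was at 20.0 and 28.1 TPM (24.05 ± 5.74), Rab11a of recycling endosomes at 18.1 and 23.6 TPM (20.8 ± 3.89) and Rab32 of lysosome-related organelles at 17.4 and 24.1 TPM (20.8 ± 4.73). Neighbours in this order mostly could not be ranked. After each TPM was divided by its library's median over expressed genes, 6 of 33 neighbouring pairs had ranges over both libraries that did not overlap, and 27 overlapped. The 6 were Rab12 above Rab5b, Rab5b above Rab1a, Rab10 above Rab11a, Rab1b above Rab18, Rab18 above Rab34 and Rab29 above Rab2b.

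Rabs of the Golgi apparatus and the early secretory pathway were present at middle levels, with 9 of 13 genes expressed and a median of 6.25 ± 0.417 TPM. Rab1a, the Rab of transport from the endoplasmic reticulum to the Golgi apparatus, was the highest. Rab6a, which carries vesicles back through the Golgi apparatus, was at 14.8 and 21.9 TPM (18.4 ± 5.03), and Rab43 at 11.2 and 11.3 TPM. Rab2a, which acts between the Golgi apparatus and the endoplasmic reticulum, was at 8.69 and 10.5 TPM, and Rab1b at 5.95 and 6.54 TPM. Rab18, found on lipid droplets and the endoplasmic reticulum, was at 3.31 and 6.28 TPM. Near the threshold were Rab2b (1.80 and 2.31 TPM), the autophagy-linked Rab33b (1.78 and 1.57 TPM) and Rab19 (1.53 and 1.19 TPM). Below it were Rab33a (0.34 and 0.73 TPM), Rab36 (0.15 and 0.22 TPM), Rab6b (0.08 and 0.18 TPM) and Rab30 (0.05 and 0.15 TPM), the lowest of the group, with 16 and 7 counts.

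Early endosome Rabs were the most completely represented of the larger groups, with 7 of 8 genes expressed and a median of 16.9 ± 3.46 TPM. All 3 Rab5 genes, whose proteins control fusion of early endosomes and entry of phagosomes into maturation, were above 10 TPM, with Rab5a at 13.7 and 20.1 TPM (16.9 ± 4.50). Rab20, a Rab of macrophage phagosomes, was at 18.3 and 20.2 TPM (19.2 ± 1.32), and the integrin-traffic gene Rab21 at 15.2 and 12.2 TPM. The related Rab31 and Rab22a were at 8.28 and 9.77 TPM and at 8.44 and 8.47 TPM. Rab17, known from epithelial cells, was the gene at 0 counts.

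Of the recycling Rabs, 5 of 8 were expressed, with a median of 13.0 ± 1.09 TPM. Rab14 led, Rab11a followed, and Rab35, which recycles receptors from endosomes, was at 12.2 and 13.8 TPM. Rab4b, of fast recycling, was at 9.83 and 11.2 TPM and Rab11b at 8.03 and 12.6 TPM. Rab4a was at 0.56 and 0.84 TPM, Rab15 at 0.24 and 0.26 TPM, and the epithelial Rab25 at 0 and 0.09 TPM, from 0 and 1 counts.

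Among Rabs of late endosomes, lysosomes and autophagosomes, 5 of 9 were expressed, with a median of 13.7 ± 2.40 TPM. Beside Rab7 these were Rab24, linked to autophagy, at 20.7 and 14.1 TPM (17.4 ± 4.71), and Rab9, which returns sorting receptors from late endosomes to the Golgi apparatus, at 15.4 and 12.02 TPM (13.7 ± 2.40). Rab7b, which acts between late endosomes and the Golgi apparatus, was at 6.70 and 9.76 TPM, and Rab34, which positions lysosomes, at 2.07 and 3.12 TPM. Rab39 was at 0.11 and 0.23 TPM, with 11 counts in each library, and Rab9b, Rab39b and Rab42 were at 0 counts.

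The Rab8 and Rab10 branch had the highest median of any group, 33.5 ± 4.80 TPM over 4 of 5 genes. Rab8a was at 10.8 and 11.5 TPM (11.2 ± 0.502). Rab13, known from cell junctions, crossed the threshold between libraries with 1.12 and 0.88 TPM. Lysosome-related organelles were represented by Rab32 and by Rab29, which recruits the kinase LRRK2 to membranes, at 2.50 and 2.48 TPM. Rab38, the partner of Rab32 in pigment cells, was at 0.23 and 0.30 TPM.

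Rabs of regulated secretion were mostly low by the first quantification. Of 9 genes only Rab44, a long Rab described in immune cells, was expressed, with 4.79 and 8.56 TPM (6.68 ± 2.67). Rab3d, of secretory granules, was at 1.16 and 0.85 TPM. The others were Rab26 at 0.41 and 0.50 TPM, Rab27a, which docks granules and lysosome-related organelles, at 0.12 and 0.23 TPM, and the synaptic-vesicle gene Rab3a at 0.06 and 0.23 TPM. Rab37 was at 0.10 and 0.03 TPM and Rab27b at 0.01 and 0.07 TPM, from 2 and 3 counts, and Rab3b and Rab3c were at 0 counts. In the separate group of cilium and hedgehog signalling, Rab28 was at 6.50 and 9.99 TPM. Rab23 of that group, a brake on hedgehog signalling, was at 0.81 and 1.11 TPM. The SOCS box group held Rab40c, whose SOCS box joins a ubiquitin ligase, at 0.89 and 2.00 TPM. Its relative Rab40b was at 0.05 and 0.11 TPM.

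Close paralogues were often expressed unequally. In 22 of the 1711 pairs the encoded proteins shared 70% or more of their residues. Rab6a and Rab6b, 90.9% identical, differed by 185-fold in replicate 1 and 122-fold in replicate 2. Rab4b was 17.6-fold and 13.3-fold above Rab4a (86.4% identical), and Rab8b was 4.75-fold and 6.47-fold above Rab8a (83.6%). Rab1a was 3.61-fold and 4.88-fold above Rab1b (92.5%), and Rab2a 4.83-fold and 4.53-fold above Rab2b (85.4%). Rab11a was 2.25-fold and 1.87-fold above Rab11b (90.7%). In all 6 of these pairs the same gene was higher in both libraries. The 3 Rab5 genes lay closer together: Rab5b was 1.93-fold and 2.05-fold above Rab5a, while Rab5b over Rab5c was 0.98 and 1.73, so these genes changed order between the libraries. Rab9 had 627 and 243 counts where Rab9b, 75.6% identical, had 0, and the ratio of Rab31 to Rab22a, 71.1% identical, was 0.98 and 1.15. These ratios depend on the quantification. By the second, Rab31 was at 18.7 and 14.3 TPM and Rab22a at 9.51 and 6.90 TPM. Rab8b was then at 31.2 and 43.6 TPM and Rab8a at 13.9 and 14.9 TPM. The order within the 6 pairs above stayed the same. By the first, 7.59 and 6.94 TPM of Rab8a lay in the retained-intron transcript Rab8a-202.

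**Figure D2:**
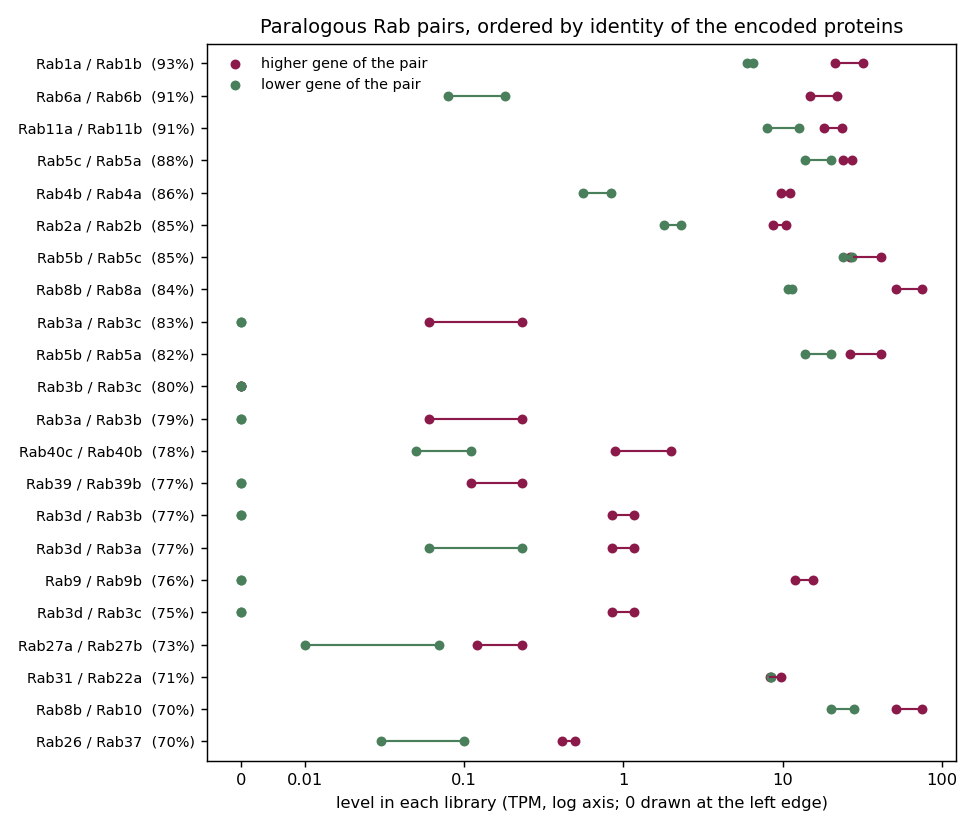
TPM (log axis) of the genes of 22 pairs of Rab paralogues in both libraries, as 2 joined points per gene, ordered from the most alike pair at the top, with the percent of identical residues in brackets and 0 drawn at the left edge. Points of Rab6a and Rab6b are the farthest apart among pairs with counts in both genes, and those of Rab5b and Rab5c overlap.

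Reads of paralogues were largely separable by sequence. A stretch of 31 bases was counted as shared where it also occurs, on either strand, in an annotated transcript of another gene. The median over the 59 genes was 0.774% of such stretches, 19 genes shared none, and 19 shared 5% or more. Sharing with another Rab gene was small, at most 40 stretches, between Rab4b and Rab11b. The larger shares came from overlapping gene models, opposite-strand neighbours and pseudogenes. Rab43 shared 74.8%, most with the predicted gene Gm45140 (0.69 and 0.33 TPM), and Rab4b 62.7%, most with Gm21983 (0.07 and 0 TPM). Rab24 shared 54.4%, with Prelid1 on the opposite strand (14.95 and 19.3 TPM), whose exons overlap those of Rab24 by up to 830 bases. Rab6a overlaps Mrpl48 (6.61 and 9.78 TPM) by up to 409 bases, Rab20 overlaps E230013L22Rik (8.84 and 7.02 TPM) by up to 356 and Rab2b, which shared 59.6%, overlaps Gm43766 (0.10 and 0.56 TPM) by up to 2459 and Tox4 (13.8 and 15.8 TPM) by up to 158, both on the opposite strand. Rab26 shares exon bases with Traf7 (20.7 and 23.8 TPM) on its own strand. In all, exons of 20 Rab genes overlap another gene, those of 15 on the opposite strand. Whether counting used strand is not given in the sources used here, so reads of these genes and their partners cannot be told apart with certainty.

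The libraries differed by under 1.5-fold in most Rab genes, as in most genes with a protein-coding transcript at a mean of 1 TPM or more. Differences are given as the log2 ratio of TPM + 0.1, replicate 2 over replicate 1, less the median over 9010 genes with a protein-coding transcript and a mean of 1 TPM or more. Of the 37 Rab genes at that level, 16 were higher and 21 lower, with a median of -0.12, and -0.11 by counts scaled with TMM. None lay beyond 2-fold, where 1.13% of all such genes were higher and 3.03% lower. Beyond 1.5-fold, 1 Rab gene was higher (6.09% of all genes) and 6 were lower (10.6% of all genes). With 2 libraries and no second group these are descriptions of 2 libraries, with no test.

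**Figure D3:**
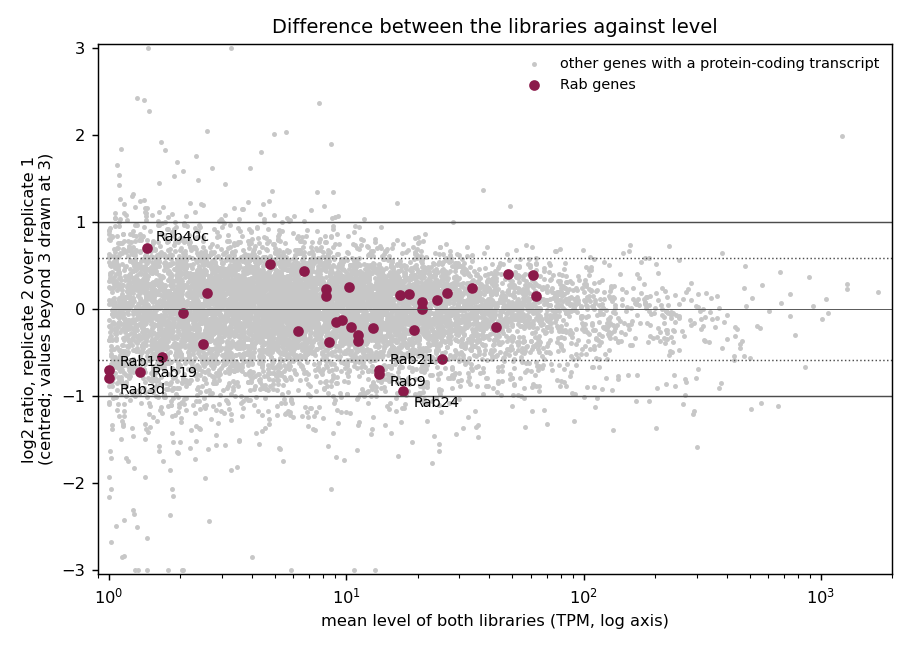
Centred log2 ratio of TPM, replicate 2 over replicate 1, against the mean TPM (log axis) for 37 Rab genes (large points) and the other genes with a protein-coding transcript at a mean of 1 TPM or more (grey), with solid lines at 2-fold and dotted lines at 1.5-fold. All Rab points lie within 2-fold, and the 7 beyond 1.5-fold are named.

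By TPM of the first quantification Rab24 differed most, with 745.65 and 296.25 counts and a log2 ratio of -0.94. By TMM-scaled counts Rab24 was at -0.74, and Rab9 was lower with -0.77. By the second quantification Rab24 was at -0.82, and Rab19 (-1.31), Rab13 (-0.98), Rab29 (-0.88), Rab5c (-0.86) and Rab3d (-0.84) were lower. The TPM of Prelid1, which overlaps Rab24, went from 14.95 to 19.3, and the part of that overlap in the result was not tested. Rab9 had a ratio of -0.74 by TPM but of -0.26 with the second quantification. Rab5c, with 1607 and 702 counts, was just within 1.5-fold by TPM at -0.57, with -0.60 after TMM scaling and -0.86 by the second quantification. Rab21 had a ratio of -0.70 by TPM but of -0.11 by TMM-scaled counts. Its effective length, by which TPM divides counts, was 1876 bases in replicate 1 and 2901 bases in replicate 2. Rab3d was alike, with -0.79, -0.26 by TMM-scaled counts and effective lengths of 2380 and 3623 bases.

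The other genes beyond 1.5-fold and lower were Rab19 and Rab13, both at low levels. Rab19 had -0.72 (72 and 28 counts) and Rab13 -0.70 (34 and 13 counts). The 1 higher gene was Rab40c, at 0.70 with 68 and 76 counts, and its sign turned with the second quantification (-0.17). Among genes with a mean of 100 counts or more, the highest ratios by TPM were those of Rab18 (0.52), Rab44 (0.44), Rab7 (0.40), Rab14 (0.39) and Rab11b (0.26), all under 1.5-fold. By TMM-scaled counts Rab18 was at 0.24 and Rab44 at 0.17, and Rab14 was highest at that depth with 0.53. The lowest by TPM at that depth were Rab24, Rab9, Rab21, Rab5c and Rab33b (-0.56). By TMM-scaled counts 8 genes lay beyond 1.5-fold, namely Rab5c, Rab9, Rab13, Rab19, Rab24, Rab29, Rab33b and Rab40c.

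Much of the RNA of several Rab genes was assigned to transcripts annotated as retaining an intron. The share of TPM in such transcripts cannot tell a stably retained intron from RNA not yet spliced, which a nuclear fraction also holds. Over the 16 Rab genes with such a transcript and a mean of 1 TPM or more, the median share was 29.8%, where 5805 such genes among all with a protein-coding transcript had 34.6%. With estimated counts in place of TPM, the Rab median was 18.7%. It was 25% or more in both libraries for 8 of 16 Rab genes, beside 58.4% of all. Rab14 had the highest mean share by the first quantification, 62.6% and 70.8%, with 7 such transcripts annotated, and its 5003-base transcript Rab14-210 alone had 9.98 and 21.8 TPM beside 13.0 and 19.8 TPM for the protein-coding Rab14-201. Rab8a had 70.1% and 60.2%, above Rab14 in replicate 1 and, by the second quantification, in both libraries (77.4% and 68.1% beside 62.5% and 66.9%). All of it lay in the 542-base Rab8a-202 (7.59 and 6.94 TPM, but 84.5 and 39.6 counts beside 488 and 343 for the 4550-base Rab8a-201). Rab8b has 1 annotated transcript, and the share cannot be formed for it. Next came Rab4b (55.6% and 41.5%), Rab5a (48.2% and 47.3%) and Rab24 (38.2% and 48.2%).

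In Rab5a the whole share lay in 1 transcript, Rab5a-202, at 6.61 and 9.50 TPM beside 7.10 and 10.6 TPM for the coding Rab5a-201. Rab5b (36.0% and 41.2%) and Rab12 (35.5% and 41.0%) were close behind. At the low end, Rab11a had 6.42% and 4.41%. Under a mean of 1 TPM, Rab23 had 88.9% and 93.7% of its little RNA in such transcripts. In Rab44 the share was 20.9% and 30.8%, most of it in the retained-intron transcript Rab44-205 (0.70 and 2.28 TPM). The coding transcript Rab44-201 and the retained-intron transcript Rab44-207 have the same sequence in the annotation. The smaller part of the share given to Rab44-207 (0.30 and 0.36 TPM) therefore cannot be told from Rab44-201.

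**Figure D4:**
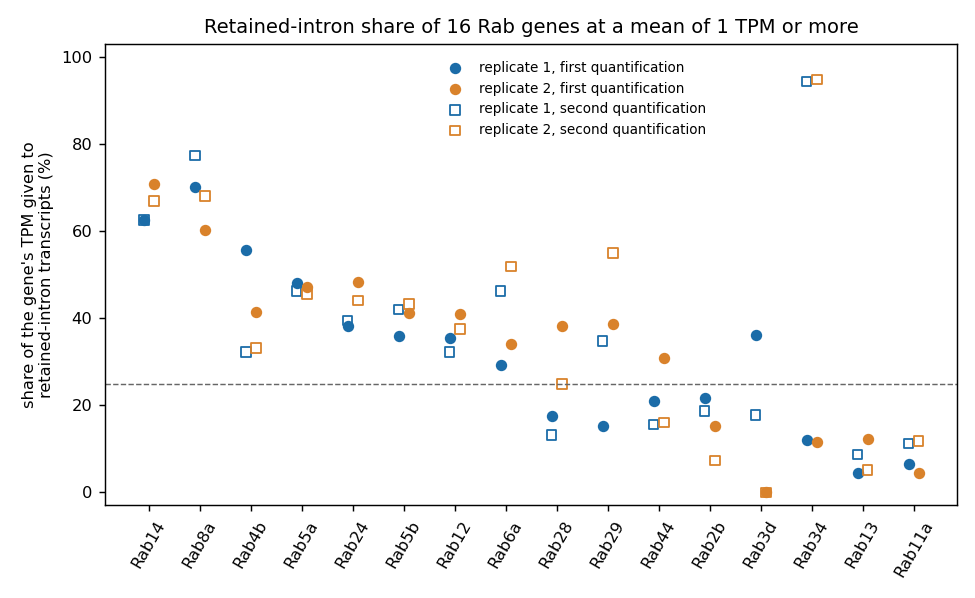
Retained-intron share of the gene's TPM (percent, vertical axis) for 16 Rab genes with a mean of 1 TPM or more, in both libraries (colours) and by both quantifications (filled circles for the first, open squares for the second), with a dashed line at 25%. Rab14 and Rab8a are above 60% throughout, and Rab34 differs between the quantifications, with 12.0% and 11.6% by the first and 94.3% and 94.9% by the second.

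A second quantification, made by the authors directly from the reads, had a Spearman correlation of 0.896 with the first over the 59 genes, but the levels of many differed, by more than the SD between the libraries for 38 of 59. Rab8b was at 31.2 and 43.6 TPM by the second, where Rab12 was highest by the mean of both libraries, at 57.5 and 48.1 TPM. Rab9 was at 30.8 and 31.9 TPM, Rab11a at 39.8 and 39.6 TPM, Rab31 at 18.7 and 14.3 TPM and Rab18 at 10.7 and 17.8 TPM, each above its level by the first quantification in both libraries. Rab34 was at 2.07 and 3.12 TPM by the first and at 17.2 and 24.3 TPM by the second. The difference lay in the 352-base retained-intron transcript Rab34-207, with 0 and 0.24 TPM by the first and 15.3 and 20.7 TPM by the second. Of its 31-base stretches, 29.8% also occur in transcripts of other genes, 1648 in number. Rab23 was at 0.81 and 1.11 TPM by the first and 2.96 and 7.01 TPM by the second, most of it in the retained-intron transcript Rab23-207 (2.54 and 6.42 TPM), with 0.0396% of stretches shared.

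Genes at or near 0 moved too. Rab9b, at 0 counts by the first, was at 2.29 and 4.96 TPM by the second, and Rab3c at 1.05 and 2.92 TPM. Rab9b has 1 transcript, of which 0.684% of stretches occur elsewhere, in 2840 other genes. Rab27b was at 1.11 and 1.98 TPM and Rab37 at 0.809 and 1.44 TPM by the second, the latter nearly all in the retained-intron transcript Rab37-203 (0.712 and 1.43 TPM). Rab3b had 0.226 and 1.04 TPM and Rab4a 0.753 and 1.00 TPM by the second. Rab3d had 2.09 and 1.41 TPM and Rab40c 0.902 and 1.00 TPM, while Rab19, expressed by the first, had 1.73 and 0.820 TPM and Rab13 had 1.32 and 0.792 TPM. These genes were therefore near or under the threshold by 1 quantification and over it in at least 1 library by the other, and their presence is uncertain.

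**Figure D5:**
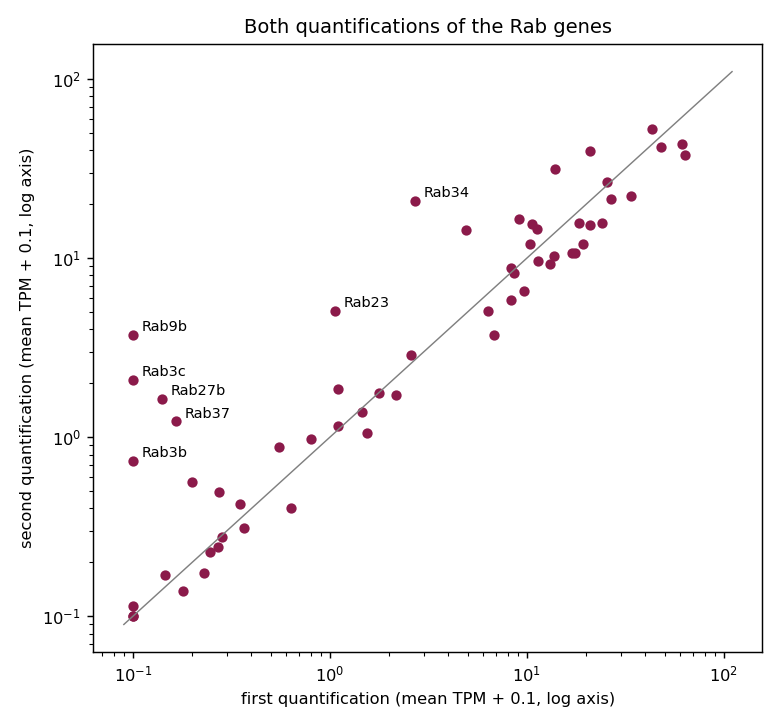
Mean TPM + 0.1 of the 59 Rab genes by the second quantification against the first (both log axes), with the line of equality. Rab12 is the highest by the second, and Rab3b, Rab3c, Rab9b, Rab23, Rab27b, Rab34 and Rab37 lie far above it.

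Upstream sequence was read for 48 of the 59 genes from RefSeq on GRCm38.p6, as the 250 bases before the most upstream listed start. Those not matched were Rab2a, Rab4a, Rab7b, Rab18, Rab26, Rab27b, Rab30, Rab36, Rab37, Rab38 and Rab44. The dinucleotide CG, which reads the same on both strands and marks CpG islands where frequent, was counted in each. Expressed Rab genes had a median of 19 CG (30 genes) and the other Rab genes 12.5 (18 genes). Over all genes with such a sequence the medians were 17 (6883 expressed genes) and 5 (9636 other genes). At least 10 CG were in 83.3% of the expressed and 55.6% of the other Rab genes, beside 77.0% and 34.4% of all genes. The windows of Rab2b, Rab6b, Rab24 and Rab33b, counted here, lie wholly in annotated exons. Windows of 4 genes free of annotated exons are shown. They are those of both highest Rab genes, of an expressed gene with few CG and of Rab17, a gene at 0 counts. The Rab17 window lies inside the gene as GENCODE annotates it, downstream of the start given there (chr1:90969661). CG is in capitals, and each window is written 5′ to 3′ on the minus strand, where all 4 genes lie.
Rab8b, chr9:66919706-66919955, with 20 CG: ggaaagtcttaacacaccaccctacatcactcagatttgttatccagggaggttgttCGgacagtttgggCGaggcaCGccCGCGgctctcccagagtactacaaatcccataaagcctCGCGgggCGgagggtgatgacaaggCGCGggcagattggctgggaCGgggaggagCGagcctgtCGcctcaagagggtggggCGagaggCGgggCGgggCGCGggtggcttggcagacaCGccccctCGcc
Rab14, chr2:35201121-35201370, with 23 CG: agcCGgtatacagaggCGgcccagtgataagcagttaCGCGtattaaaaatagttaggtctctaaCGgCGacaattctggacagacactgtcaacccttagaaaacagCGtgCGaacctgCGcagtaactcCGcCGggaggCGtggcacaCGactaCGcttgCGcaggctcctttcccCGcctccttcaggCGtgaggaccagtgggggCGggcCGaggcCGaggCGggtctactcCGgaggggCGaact
Rab9, chrX:166479868-166480117, with 7 CG: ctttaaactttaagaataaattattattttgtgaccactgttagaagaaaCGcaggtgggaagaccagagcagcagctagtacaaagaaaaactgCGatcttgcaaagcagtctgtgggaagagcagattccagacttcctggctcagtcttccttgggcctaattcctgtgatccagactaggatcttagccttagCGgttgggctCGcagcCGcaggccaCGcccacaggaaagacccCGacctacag
Rab17, chr1:90967668-90967917, with 3 CG: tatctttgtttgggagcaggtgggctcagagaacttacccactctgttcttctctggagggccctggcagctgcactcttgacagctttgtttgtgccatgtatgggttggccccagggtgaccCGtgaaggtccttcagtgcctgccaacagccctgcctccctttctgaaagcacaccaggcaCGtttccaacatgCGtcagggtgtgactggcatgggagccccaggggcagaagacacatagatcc

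Single genes could depart from the medians of CG. Rab9, with 7 CG, was at 15.4 and 12.02 TPM, and Rab39, with 18, at 0.11 and 0.23 TPM. Both are picked examples, and no correlation of the CG count with level was computed. The match is a description of the sequence, with no statement on what binds there.

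Most listed genes of the machinery that runs the Rab cycle were expressed. Of 142 regulator and effector genes listed, 109 (76.8%) were expressed and 44 reached 10 TPM in each library, with a median of 9.54 ± 2.16 TPM, beside the 39.1% and 14.7% of all genes. The lists were chosen with earlier results of these data known, so their shares are no independent comparison with all genes. All 9 genes for GDP dissociation inhibitors, escort proteins and prenylation were expressed, among them the inhibitor gene Gdi2 (34.0 and 46.6 TPM) and the escort gene Chm (8.58 and 11.7 TPM). Of the exchange factors 32 of 39 were expressed, with a median of 12.9 ± 2.75 TPM. Their highest were the DENN-domain genes Dennd1a (102 and 158 TPM), whose product activates Rab35, Dennd5a (72.1 and 132 TPM) and Dennd1c (40.1 and 78.0 TPM). Dennd1a and Dennd5a were above every Rab gene in both libraries.

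Of the genes for GTPase-activating proteins, 29 of 38 were expressed, with a median of 9.56 ± 2.64 TPM, led by Tbc1d1 (71.3 and 69.2 TPM), Tbc1d2b (29.7 and 51.7 TPM) and Rab3gap2 (32.1 and 38.2 TPM). Of 52 effectors 35 were expressed, with a median of 9.32 ± 2.56 TPM. The Rab5 effectors Appl2 (64.7 and 76.9 TPM) and Eea1 (54.3 and 74.8 TPM) and the motor gene Myo5a (61.6 and 77.4 TPM) were highest. At 0 counts in both libraries were 7 of the 52 effectors, where 34.4% of all genes with a protein-coding transcript were. Among them were Rph3a, Rims1, Sytl4 and Myrip, which serve Rab3 and Rab27 in secretory cells. These were picked after their values were seen, and other listed effectors of Rab3 and Rab27 are not described here. Rubcnl, an autophagy regulator, was the 1 gene on these lists with 100 counts or more that lay beyond 2-fold by TPM of the first quantification, at 2.01 and 0.98 TPM and 205 and 49 counts. By the second quantification its log2 ratio was -0.69, within 2-fold. All 4 genes of the LRRK2 list were expressed, with the retromer gene Vps35 at 23.8 and 41.4 TPM, the Rab phosphatase gene Ppm1h at 18.1 and 20.1 TPM, Lrrk1 at 5.08 and 5.51 TPM and Lrrk2 at 2.44 and 3.88 TPM.

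Noncoding genes named after Rab loci were present in some cases. Rab10os, antisense to Rab10, was at 7.21 and 8.62 TPM, with 132 bases of exon overlap. Rab26os was at 6.10 and 6.29 TPM, from 27 and 10 counts, where Rab26 itself was at 0.41 and 0.50 TPM. The processed pseudogenes Rab11b-ps2 (0.40 and 0.96 TPM) and Rab7-ps1 (0.18 and 0.94 TPM) stayed under 1 TPM in both libraries, and Rab5a-ps and Rab9b-ps1 were at 0.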

How the data were processed

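The authors deposited, per library, a gene and a transcript table of a first quantification and a transcript table of a second. Per the file headers and accompanying notes, the first used reads aligned to the transcriptome of mm10 (GENCODE M21) and the second took 10 read files per library. The aligner and quantifier were not given in the sources used here. Deposited estimated counts are unnormalized and need not be whole. Deposited TPM are scaled by effective length to 1000000 per library, small RNAs included, and deposited FPKM served as an alternative. Deposited bounds of TPM (a signal) were read and not printed.

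Members and gene lists were chosen with earlier results of these data known. Ratios used log2(TPM + 0.1), centred on the median of genes at a mean of 1 TPM or more. Named genes in full were the 10 highest, the ends of each role group, the 5 highest and lowest ratios with 100 counts or more, the 5 highest retained-intron shares, genes crossing 1 TPM and the closest paralogues. Of regulators, the 3 highest of each list and those beyond 2-fold with 100 counts or more were named, except results not reported here, and others named (such as 4 effectors at 0 counts, and all genes overlapping a Rab gene) were chosen after their values were seen. Counts rounded to whole numbers were scaled with TMM (edgeR 4.0.16, prior count of 2) and DESeq2 1.42.0 size factors in R 4.3.3. No p-value was computed. The calculation of ratios was tested on simulated counts with the same effective length per gene in both libraries. It therefore did not cover changes of effective length or of the assignment of reads. Principal transcripts were chosen by APPRIS tag, then CCDS, then coding length, and proteins were aligned with Biopython 1.88 (BLOSUM62), identity being the percent of the shorter protein. Also used were Python 3.11.15, pandas 2.3.3, numpy 2.4.6, matplotlib 3.10.9 and scipy 1.17.1. Floors cover counting error only.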

Additional observations from a re-analysis of the deposited data

How the results depend on the processing

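No paired analysis was possible because there was 1 group. The number of expressed Rab genes, 34, ranged from 27 with a minimum of 5 TPM to 39 with one of 0.5 TPM, and was 36 in each library alone, 37 in FPKM and 38 with the second quantification. Their median of 12.1 TPM became 2.595 with no filter, 16.9 with a minimum of 5 TPM, 11.2 with the second quantification, 48.3 after rescaling to protein-coding genes and 15.0 in FPKM, and from 11.0 to 11.8 with 1 library left out. The median ratio of -0.12 ranged from -0.17 to -0.06 under the alternatives that kept a filter. With no filter it turned to 0.34, because genes at 0 in both libraries then entered the median used for centring. Of Rab genes beyond 2-fold there were 0, but 1 with the second quantification (Rab19, -1.31) and 2 with no filter. The median retained-intron share of 29.8% was 38.3% with the second quantification, 38.6% with a minimum of 5 TPM, 18.7% by isoform counts and from 32.4% to 38.5% with 1 library left out. The ratio of Rab40c turned from 0.70 to -0.17 with the second quantification. Low members rest on few counts, and 21 were under 1 TPM in both libraries, 6 of them at 0 counts. With the second quantification, the mean TPM of 38 of 59 genes moved by more than the SD between the libraries.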

Other observations

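Another family of small GTPases was also present in the nucleoplasmic RNA. Of 28 Arf, Arl and Sar genes, whose products shape vesicle coats and cilia, 22 (78.6%) reached 1 TPM in each library. This held for 39.1% of all genes with a protein-coding transcript. The 22 genes had a median of 9.80 ± 3.12 TPM. The highest were Arl5c (61.2 and 82.8 TPM) and Arl8a, which moves lysosomes along microtubules (50.3 and 74.2 TPM).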
